A study of Mus musculus with 30 samples.

Results

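The genes described here are 10 glycolytic enzymes, Gapdh, Ldha, Ldhb, Hk1, Hk2, Aldoa, Eno1, Tpi1, Pfkl and Pgam1, taken by name from the pathway with every probe set that the array annotation assigns to that gene alone. This gave 9 genes and 23 probe sets out of 18194 genes and 45101 probe sets in the series. Eno1 did not have an entry in the annotation table used and was not analysed here, and 4 probe sets shared between a member and other genes were left out.

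Glycolysis is the cytosolic pathway that splits glucose into pyruvate. Hexokinases trap glucose in the cell as its phosphate, phosphofructokinase commits it to the pathway, aldolase and triosephosphate isomerase make and interconvert the triose phosphates, GAPDH oxidises them, phosphoglycerate mutase and enolase prepare the last high-energy phosphate, and lactate dehydrogenases turn pyruvate into lactate. Most steps have several isozymes encoded by separate genes, and pluripotent cells and the early epiblast are known for relying strongly on this pathway. Primordial germ cells (PGCs), the founders of eggs and sperm, arise from the epiblast, and in the mouse they are known to change their balance between glycolysis and mitochondrial respiration as they develop.

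Each of the 30 arrays carried the amplified cDNA of 1 cell, picked by hand from the base of the allantois of C57BL/6 embryos at E7.25-E7.5 from crosses of Prdm14 +/- parents, and kept as a PGC because its cDNA held Prdm1. PRDM14 is a transcriptional regulator needed for PGC reprogramming. There were 4 cells labelled Prdm14 KO (-/-), 13 labelled Prdm14 +/- and 13 labelled WT (+/+).

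Values are the log2 model-based expression index (MBEI), an array's summary of a probe set's brightness. Between 58.9% and 69.6% of the values on an array were listed at exactly 0, so values were floored at 6 (an MBEI of 64), and "above the floor" means a value over 6. The labels and the transcript of Prdm14 itself were at odds: 4 of 4 KO cells, 12 of 13 +/- cells and 6 of 13 WT cells had it above the floor, and it averaged 11.40 ± 0.98 in KO, 9.70 ± 1.93 in +/- and 7.40 ± 1.85 in WT. Each group is therefore named here only by its label. Were the KO and WT labels exchanged, the sign of every difference between them would turn, and neither this nor whether its probes lie in the deleted part of the gene was tested. Each gene is represented by the brightest of its probe sets on average, and differences are differences of group means on this log2 scale. Array codes in the titles fall into 3 runs: all cells labelled KO were in run 3, those labelled +/- in run 2 (7 cells) and run 3 (6 cells), and those labelled WT in run 1 (10 cells) and run 2 (3 cells). Nothing ties a cell to an embryo, so each genotype counts as 1 sample: no test between genotypes was possible, SDs describe the spread between cells only, and genotype and run cannot be told apart for KO against WT.

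The blood and endothelial markers were at the floor in all 30 cells for 4 of 9 genes (Gata1, Hbb-bh1, Hbb-y and Hba-x), with summed floored levels of 54.0 to 57.0 in cells labelled KO, 54.0 to 57.3 in +/- and 54.0 to 56.2 in WT against a possible minimum of 54.0. Germ cell markers differed between the labels. Of 10 measured genes 6 were at least 1 higher in cells labelled KO than in cells labelled WT (8.14% of all genes were), or 7 with array run as a block in the fit (12.8% of all genes), and the summed level of the 10 ran from 117 to 120 in KO, 77.6 to 119 in +/- and 85.6 to 116 in WT. The summed level of 11 somatic mesoderm genes ran from 90.2 to 105 in KO, 84.9 to 116 in +/- and 91.5 to 108 in WT, and 3 of these genes were at least 1 lower in KO than in WT. The sums of 6 endoderm genes ran from 41.0 to 44.8 in KO, 36.0 to 41.9 in +/- and 36.0 to 45.0 in WT, with Afp and Ttr at the floor in all cells, and those of 6 extraembryonic ectoderm genes from 36.0 to 44.9 in KO, 36.9 to 53.6 in +/- and 36.8 to 48.9 in WT, with Elf5 at the floor in all cells. The part of these markers in the differences between labels was not tested.

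The upstream sequences of 4 enzyme genes are shown first because the results set Ldha, Hk2 and Pgam1, which varied together between cells, beside the isozyme Ldhb, which did not vary with Ldha. They are RefSeq sequences of build GRCm38.p6, read 5′ to 3′ on the gene's strand, each ending before an annotated transcription start. For Ldha, RefSeq also annotates an earlier and a later one. Capitals mark ACGTG or its reverse complement CACGT, the core of the element bound by hypoxia-inducible factors and shared with the E-box CACGTG bound by MYC family proteins. Not shown are Aldoa, which also held it, and Gapdh and Tpi1, which did not. Gapdh varied with Ldha (r = 0.76) and Tpi1 with Pgam1 (r = 0.72). The stretches of Hk2 and Pgam1 are 60 bases around 1 match. Whether the motif goes with varying together was not tested.
Ldha, chr7:46845644-46845783, plus strand: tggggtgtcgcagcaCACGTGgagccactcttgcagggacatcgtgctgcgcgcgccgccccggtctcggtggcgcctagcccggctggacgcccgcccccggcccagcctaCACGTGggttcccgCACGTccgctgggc
Ldhb, chr6:142507978-142508117, minus strand: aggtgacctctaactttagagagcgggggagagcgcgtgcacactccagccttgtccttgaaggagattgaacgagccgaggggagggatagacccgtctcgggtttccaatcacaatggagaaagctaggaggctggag
Hk2, chr6:82774475-82774534, minus strand: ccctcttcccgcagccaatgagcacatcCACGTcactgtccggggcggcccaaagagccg
Pgam1, chr19:41911731-41911790, plus strand: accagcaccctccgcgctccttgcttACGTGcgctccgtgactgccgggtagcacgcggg

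In the 250 bases before a start, ACGTG on either strand lay in 5 of 16 windows of the members, belonging to 4 of 10 genes (Ldha, Hk2, Aldoa and Pgam1), and in 16.6% of all 32851 windows. Ldha held the palindrome CACGTG at 145 and 48 bases before its start, each read on both strands, and a further CACGT at 34 bases. CACGTG was in 1 of the 16 member windows and in 6.02% of all windows. Hk2 held matches at 226 and 52 bases, Pgam1 at 114 bases, and Aldoa 1 match that lies 202 and 126 bases before its 2 nearest annotated starts. The windows of Ldhb, Tpi1, Gapdh, Pfkl, Hk1 and Eno1 held none. They did not cover every annotated start, since the outermost 5′ ends of Ldha, Gapdh and Aldoa lay outside the windows. A match describes letters in these windows and is not a site of binding.

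Of the 9 enzymes, 7 were above the floor in every one of the 30 cells, and each of these had a lower mean in cells labelled KO than in cells labelled WT, by 0.24 to 1.12. The hexokinases Hk1 and Hk2, the first enzymes of the pathway, were at the floor in many cells. Of the 9 genes, 8 had a lower mean in KO than in WT and 2, Hk2 and Tpi1, were lower by at least 1. Over all 18194 genes 4.41% were lower by at least 1, and the median difference was -0.47 for the members against 0.00 for all genes. The plot of member values by label shows all cells.

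**Figure D1:**
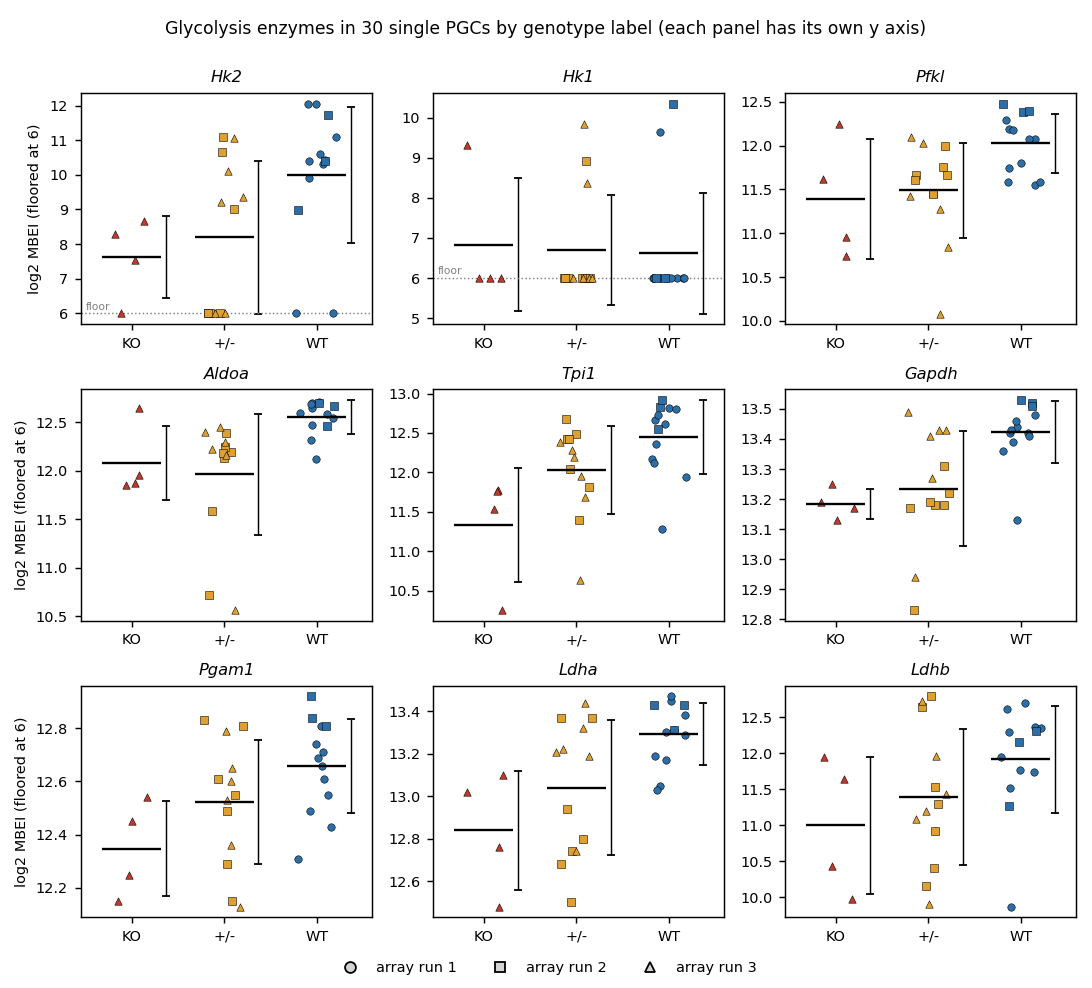
Each point is 1 cell, with the log2 MBEI floored at 6 on the y axis of each panel and the genotype label on the x axis. The marker shape gives the array run, the horizontal line the mean of the label and the vertical bar 1 SD between cells (4 cells labelled KO, 13 labelled +/-, 13 labelled WT). The 4 cells labelled KO lie at or below the low end of the 13 cells labelled WT for Ldha, Gapdh and Tpi1, and 3 of 4 KO, 7 of 13 +/- and 11 of 13 WT cells were above the floor for Hk2.

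Hk2, the hexokinase typical of embryonic and proliferating cells, showed the largest difference among the members. Its deposited values were 8.28, 2.59, 8.66 and 7.55 in the 4 cells labelled KO. In cells labelled +/- they ran from 0 to 11.09 with a median of 9.02, and in cells labelled WT from 0 to 12.06 with a median of 10.41. Hk2 was above the floor in 3 of 4 KO, 7 of 13 +/- and 11 of 13 WT cells, and 11 of the 13 WT cells lay above the highest KO cell. With the floor applied, it averaged 7.62 ± 1.18 in KO (SD, n = 4), 8.19 ± 2.21 in +/- (n = 13) and 9.999 ± 1.97 in WT (n = 13). The KO minus WT difference of -2.38 was larger than the pooled SD between cells of 1.84. Within run 2, cells labelled +/- were 2.55 lower than cells labelled WT, and within run 3 cells labelled KO were 1.002 lower than cells labelled +/-.

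Hk1, the hexokinase of most adult tissues, was near or under the limit of the array in most cells. Its brighter probe set was above the floor in 1 of 4 KO, 3 of 13 +/- and 2 of 13 WT cells, at values of up to 9.33 in KO, 9.86 in +/- and 10.36 in WT. The other probe set was above the floor in 1 of 30 cells. The 2 hexokinase genes were therefore seen in 6 cells (Hk1) and 21 cells (Hk2) of 30, and a cell with no signal may hold transcripts that this amplification and array did not register.

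Pfkl, the liver-type subunit of phosphofructokinase, was present in every cell by its best probe set. The KO cells read 11.62, 10.74, 10.96 and 12.25. Cells labelled +/- ran from 10.08 to 12.10 around a median of 11.61, and cells labelled WT from 11.55 to 12.48 around 12.08. Of the KO cells 2 lay below every WT cell and the other 2 within the WT range, and 4 WT cells lay above every KO cell. Pfkl was 0.63 lower in KO than in WT (pooled SD 0.43), and 1.19 lower without the 6 cells whose 3′ Gapdh set exceeded the 5′ set by over 0.7. Within run 2 Pfkl was 0.76 lower in cells labelled +/- (n = 7) than in cells labelled WT (n = 3), whereas within run 3 KO was 0.10 above +/-. A second Pfkl probe set was 1.03 lower in KO than in WT, and the third, above the floor in 13 of 30 cells, was 0.17 higher, so the probe sets of this gene disagree in sign.

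Aldoa, the main aldolase of muscle and of embryonic tissue, was read by 5 probe sets with the same pattern. On the representative set the KO cells read 11.96, 11.85, 11.87 and 12.65. Cells labelled +/- ran from 10.56 to 12.45 (median 12.19) and cells labelled WT from 12.12 to 12.71 (median 12.60). Of the 4 KO cells 3 lay below every WT cell and 1 within the WT range, with 5 WT cells above every KO cell. The 5 sets were 0.25 to 0.52 lower in KO than in WT, 0.41 to 0.71 lower in +/- than in WT, and 0.12 to 0.19 higher in KO than in +/-. The last direction rests on cell 81, since the representative set was 0.07 lower in KO than in +/- without it, and 0.27 lower by the median over cells. The +/- cells were the most spread for this gene, with an SD of 0.63 against 0.38 in KO and 0.18 in WT.

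Tpi1, triosephosphate isomerase, was the only member present in every cell whose representative set was at least 1 lower in KO than in WT. Its values were 10.25, 11.77, 11.54 and 11.76 in KO, 10.63 to 12.68 (median 12.20) in +/- and 11.28 to 12.92 (median 12.62) in WT. Of the 13 WT cells 12 lay above every KO cell, and 1 KO cell, cell 8, lay below every WT cell. The difference was -1.12 with a pooled SD of 0.53, and its other probe sets gave -1.29 and -1.28. Without cell 8 the difference was -0.76. Within run 3 Tpi1 was 0.53 lower in KO than in +/-, and within run 2 it was 0.59 lower in +/- than in WT. Among the 2113 genes with a mean of at least 10, 4.21% were lower by at least 1 in KO than in WT, and Tpi1 was the 1 of 7 members in that set.

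Gapdh, which oxidises glyceraldehyde phosphate and is often used as a reference transcript, varied little. The middle set of the array's Gapdh controls read 13.13, 13.17, 13.19 and 13.25 in KO. It ran from 12.83 to 13.49 (median 13.22) in +/- and from 13.13 to 13.53 (median 13.44) in WT. The KO minus WT difference of -0.24 is small in size but larger than the pooled SD of 0.09, and 12 of 13 WT cells lay above every KO cell. The lowest of the 30 array maxima was 13.72, so this transcript sat close to the top of the scale, and whether that compressed its differences was not tested.

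Pgam1, the phosphoglycerate mutase of non-muscle tissue, behaved similarly. The KO cells read 12.45, 12.15, 12.25 and 12.54. Cells labelled +/- ran from 12.13 to 12.83 (median 12.55) and cells labelled WT from 12.31 to 12.92 (median 12.69). It was 0.31 lower in KO than in WT (pooled SD 0.18), and 10 of 13 WT cells were above every KO cell.

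Ldha, the lactate dehydrogenase subunit associated with lactate production, was lower in KO by more than the spread between cells. The KO cells read 13.02, 12.48, 12.76 and 13.10. Cells labelled +/- ran from 12.50 to 13.44 (median 13.19) and cells labelled WT from 13.03 to 13.46 (median 13.31). Of the KO cells 3 of 4 lay below every WT cell and 11 of 13 WT cells lay above every KO cell. The difference was -0.45 with a pooled SD of 0.18, with 0.35 lower in KO than in +/- within run 3 and 0.48 lower in +/- than in WT within run 2.

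Ldhb, the subunit that prevails in aerobic tissues, was far more spread. The KO cells read 9.97, 11.95, 10.43 and 11.64. Cells labelled +/- ran from 9.90 to 12.79 (median 11.29) and cells labelled WT from 9.87 to 12.70 (median 12.15). All groups overlapped over most of their range. The 4 probe sets were 0.92 to 1.16 lower in KO than in WT, against pooled SDs of 0.76 to 0.81, and the representative set gave -0.92, just short of 1. Without cell 18 or cell 81 it was -1.24 or -1.13, and without cell 8 it was -0.57. The difference Ldha minus Ldhb within a cell was 0.46 larger in KO than in WT, less than its pooled SD of 0.81. Ldha read up to 13.46, also close to the lowest array maximum of 13.72. Whether that narrowed its spread beside Ldhb was not tested.

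Set against the background of other genes, the members leaned to lower values. Of the 7 members with a mean of at least 10, all 7 were lower in KO than in WT, against 44.3% of the 2113 such genes. In KO against +/- 6 of 7 were lower, against 41.1%, and in +/- against WT 7 of 7, against 56%. These 3 comparisons share cells and are not separate evidence. The member median was -0.47 for KO minus WT, -0.17 for KO minus +/- and -0.42 for +/- minus WT, while the median of the 2113 genes was 0.06, 0.07 and -0.03. No member had every KO cell below every WT cell, a separation seen in 0.055% of all genes and 0.284% of those with a mean of at least 10.

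By size the smaller contrasts held few members. None of the 9 was at least 1 lower in KO than in +/-, against 3.84% of all genes, and 1, Hk2, was in +/- than in WT, against 2% of all genes. Within run 3, 1 member (Hk2) was at least 1 lower in KO than in +/- (5.88% of all genes), and 5 of the 7 brighter members were lower by any amount (43.1% of such genes). Within run 2, 2 members (Hk1 and Hk2) were at least 1 lower in +/- than in WT (8.51% of all genes), and 7 of 7 brighter members were lower by any amount (57.4%). With 3 to 7 cells in each of these groups, single cells carry much of each mean.

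**Figure D2:**
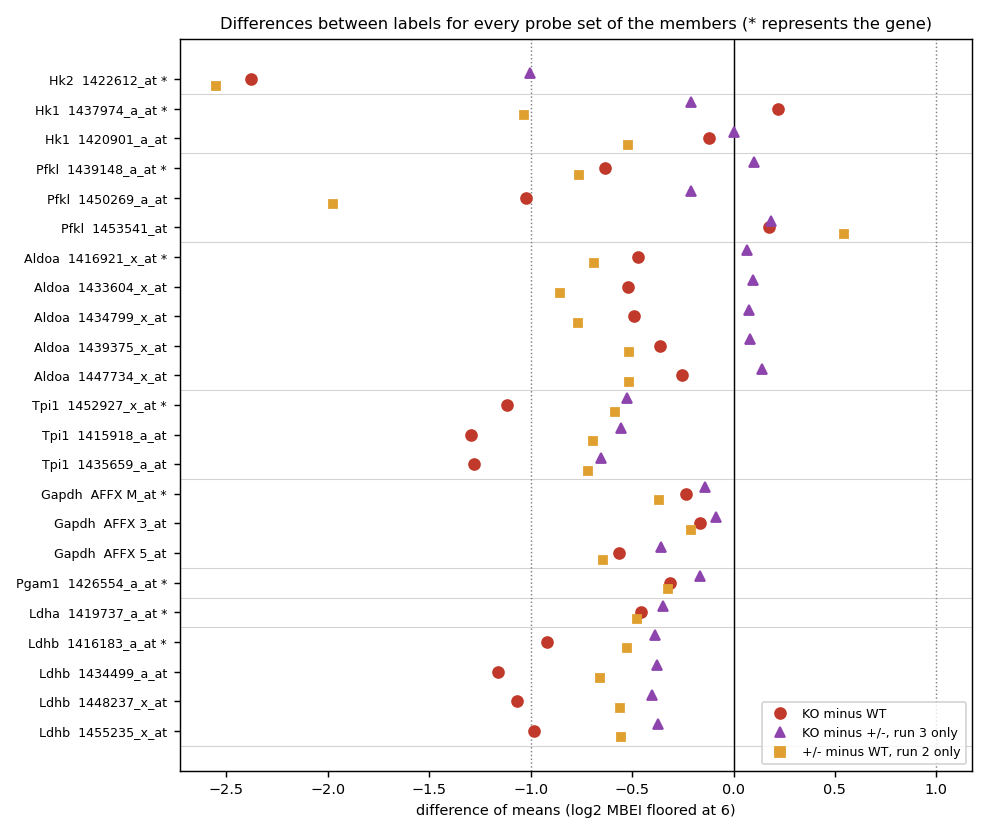
Each row is 1 of the 23 probe sets, grouped by gene in pathway order, and the x axis is the difference of means in log2 MBEI floored at 6. Circles give KO minus WT, triangles KO minus +/- within run 3 and squares +/- minus WT within run 2, and the dotted lines mark a difference of 1. The sets of Aldoa, Tpi1 and Ldhb keep together within their gene, the Pfkl sets do not, and Hk2 lies farthest left at -2.38 for KO minus WT.

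Array run was compared within a label. In cells labelled WT, run 2 was above run 1 by a member median of 0.26, and in cells labelled +/- run 3 was above run 2 by 0.10. For KO minus WT a fit with run as a block, which links the groups only through the +/- cells, gave a member median of -0.82 in place of -0.47, -3.56 for Hk2, -0.82 for Ldha and -0.51 for Gapdh. This fit takes KO against +/- from run 3 and +/- against WT from run 2. The 10 WT cells of run 1 carry no weight in it, so WT rests on 3 cells in every value given with run as a block.

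The 3′ and 5′ Gapdh control sets report how far the copied cDNA reached towards the 5′ end, a measure of RNA and amplification quality. The 3′ set exceeded the 5′ set by 1.13, 0.47, 0.31 and 0.72 in the 4 KO cells. The difference ran from 0.15 to 0.94 (median 0.44) in +/- and from 0.03 to 0.73 (median 0.20) in WT. Its mean was 0.66 ± 0.36 in KO, 0.48 ± 0.21 in +/- and 0.26 ± 0.20 in WT (SD, n = 4, 13 and 13), so the label with the lowest member levels also had the largest 3′ to 5′ difference. Of the 4 KO cells 3 lay within the +/- range and cell 8 lay above it. The 5′ set was 0.56 lower in KO than in WT, the middle set 0.24 lower and the 3′ set 0.16 lower. The corresponding β-actin difference averaged 3.23 ± 0.75 in KO, 2.66 ± 0.67 in +/- and 2.46 ± 0.46 in WT.

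Over the 30 cells the mean of the 9 members correlated with the Gapdh 3′ to 5′ difference at r = -0.49, and at -0.21 once the label means were removed. For the 7 members seen in every cell these were -0.65 and -0.47, with -0.45 within the 13 cells labelled +/- and -0.81 within the 13 labelled WT. Among the WT cells, cell 49 had both the largest 3′ to 5′ difference (0.73) and the lowest mean of the 7 members (11.96). Gapdh itself is part of both measures and stood at -0.78. With this difference as a covariate, a choice made after seeing the data, KO minus WT was -0.67 for Tpi1, -0.20 for Ldhb, -0.41 for Ldha and -2.55 for Hk2. Without the 6 cells whose difference exceeded 0.7 (2 KO, 3 +/- and 1 WT) it was -0.89 for Tpi1, -0.89 for Ldhb, -0.70 for Ldha and -2.64 for Hk2. Tpi1 was no longer 1 lower under either, and the Hk2 difference was as large under both.

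**Figure D3:**
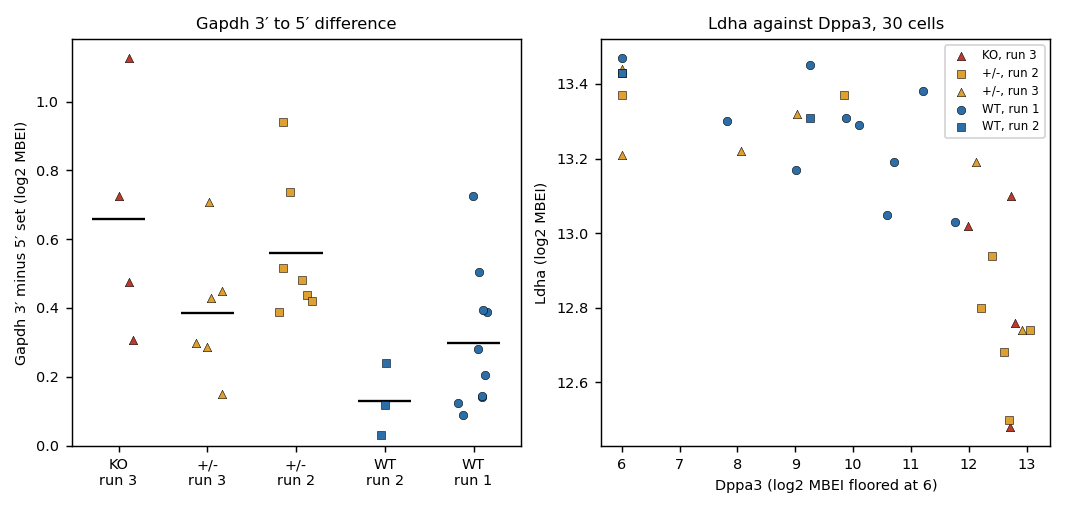
The left panel plots, for each of the 30 cells, the log2 MBEI of the Gapdh 3′ set minus that of the 5′ set, by label and array run, with lines at the means. The right panel plots Ldha against Dppa3, both in log2 MBEI. The KO cells have the highest mean 3′ to 5′ difference (0.66), and cells with high Dppa3 have low Ldha (r = -0.77).

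The members varied together from cell to cell, with clear exceptions. Ldha and Pgam1 were the closest pair (r = 0.84 over 30 cells, 0.79 with label means removed), followed by Gapdh with Ldha (0.76) and Ldha with Aldoa (0.74). Hk2 went with Ldha (0.69) and Pgam1 (0.60). Ldhb stood apart from its isozyme Ldha (r = 0.18, and -0.05 with label means removed) and from Hk2 (-0.13), but was at 0.56 with Tpi1. Hk1 was negative with all others, from -0.30 to -0.04, over few cells with signal. These are descriptions over 30 cells that share runs, amplification and labels. The 4 genes with an ACGTG match, Ldha, Hk2, Aldoa and Pgam1, correlated with one another at 0.45 to 0.84, but Gapdh and Tpi1, with no match, reached 0.76 and 0.72 with members of that set.

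**Figure D4:**
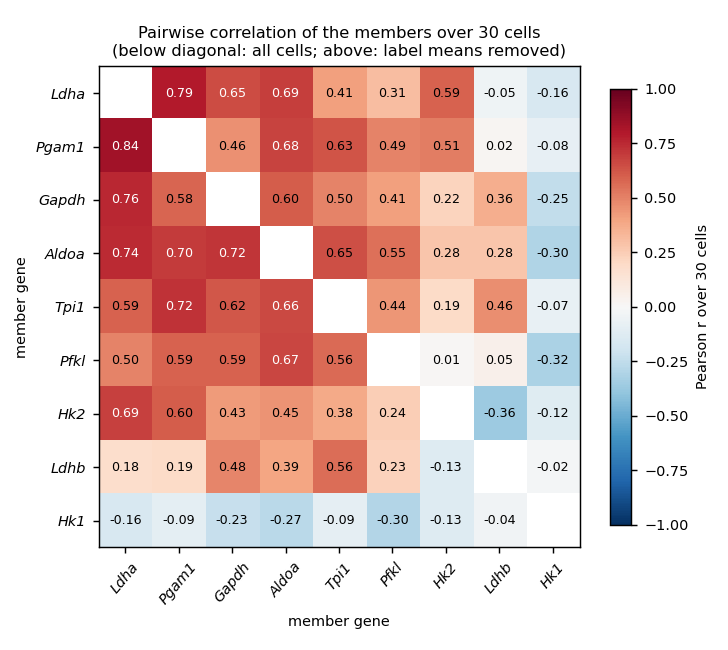
Pearson r over 30 cells for each pair of members, all cells below the diagonal and with label means removed above it, with colour from blue (-1) to red (1). Ldha, Pgam1, Gapdh, Aldoa, Tpi1 and Pfkl form the red block with r of 0.50 to 0.84, Ldhb is pale against Ldha (0.18), and Hk1 is blue.

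The gene nearest in pattern to the member mean, among 2106 genes with a mean of at least 10, was Pgk1 (r = 0.82), the phosphoglycerate kinase that follows GAPDH. Next came Dnmt3b (0.74), a de novo DNA methyltransferase, Mif (0.74), Ranbp1 (0.72), Pkm (0.71), pyruvate kinase, Atp5h (0.71), Cks1b (0.71), Nedd4 (0.70), Gnas (0.68) and Scd2 (0.67). Of these 10 genes 2, Pgk1 and Pkm, encode glycolytic enzymes. The member mean is not scaled by gene, so Hk2 and Hk1 weigh most in it. Their SDs over 30 cells were 2.18 and 1.42, against 0.17 for Gapdh. Likeness to the 7 members seen in every cell was not ranked.

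Dppa3, a gene of the PGC programme, moved opposite to the member mean, though not to every member alike. Dppa3 averaged 12.55 ± 0.38 in KO, 10.23 ± 2.87 in +/- and 9.05 ± 2.01 in WT, and was 3.51 higher in KO than in WT. The paper reports the other direction, with Dppa3 lower in Prdm14 KO PGCs by microarray and quantitative PCR. Its microarray data are the arrays used here, so this is not a difference between separate array experiments. The paper also gives a lack of Dppa3 activation in Prdm14 KO PGC-like cells by RNA-seq, and cites weaker DPPA3 staining in Prdm14 KO PGCs. As for Prdm14, label and transcript were thus at odds, and the reason was not tested. The correlation of Dppa3 with the member mean was -0.73 over 30 cells, -0.71 within the 13 cells labelled +/- and -0.73 within the 13 labelled WT, and with Ldha it was -0.77. For the mean of the 7 members seen in every cell it was -0.58, and -0.46 with label means removed. It was weaker for Pfkl (-0.30), Ldhb (-0.20) and Hk1 (-0.12). For Prdm14 the member mean gave -0.65 over 30 cells, -0.69 within +/- and -0.18 within WT, and Ldha -0.70, while Prdm1 stood at -0.28 with the member mean. The mean of the 7 members seen in every cell gave -0.46 with Prdm14, but -0.10 with label means removed. These correlations describe 30 cells that share runs and amplification, and Prdm1 was also used to pick the cells.

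The glucose transporters Slc2a1 (GLUT1) and Slc2a3 (GLUT3) were above the floor in every cell. Slc2a1 read 10.84, 11.02, 11.37 and 11.92 in KO against 10.94 to 12.79 in WT, a difference of -0.69 (pooled SD 0.54), and Slc2a3 differed by 0.13 (pooled SD 0.29). Slc16a3, the lactate exporter MCT4, was above the floor in 2 of 4 KO, 10 of 13 +/- and 11 of 13 WT cells and was 1.99 lower in KO than in WT (pooled SD 1.78). Of the 8 transporters measured, 0 were at least 1 higher and 1 was at least 1 lower in KO than in WT, against 8.14% and 4.41% of all genes. With run as a block, a choice made after seeing the data, 1 was higher (Mpc1, a subunit of the mitochondrial pyruvate carrier, by 2.08, against 0.57 without the block) and 2 were lower (Slc16a3 at -2.96 and Slc2a1 at -1.21). Over all genes 12.8% were at least 1 higher and 12% at least 1 lower in that fit.

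Of 15 other glycolytic enzymes and isozymes measured, 0 were at least 1 higher and 1, the sperm-type Gapdhs, was at least 1 lower in KO than in WT. Over all genes these shares were 8.14% and 4.41%. The list median was -0.06. Gapdhs was above the floor in 0 KO, 0 +/- and 5 WT cells, all 5 in run 1, which held no other label. Its difference with run as a block was fixed at 0, since that fit gives the cells of run 1 no weight. Pgk1 read 12.58, 12.63, 12.07 and 12.53 in KO, against 12.38 to 13.30 in WT, a difference of -0.53 (pooled SD 0.26), and Pkm was 0.36 lower (pooled SD 0.14). Hk3, Pgk2, Eno2 and Ldhd, isozymes of other tissues, were at the floor in nearly all cells of every label. Pfkm, the muscle-type phosphofructokinase subunit, was above the floor in 4 of 4 KO, 4 of 13 +/- and 8 of 13 WT cells and was 1.75 higher in KO than in +/- but 0.69 higher than in WT, within its pooled SD of 1.34. Ldhc, the testis-type lactate dehydrogenase, was above the floor in 3 of 4 KO, 5 of 13 +/- and 5 of 13 WT cells and was 1.13 higher in KO than in +/- and 0.83 higher than in WT (pooled SD 1.52). The remaining isozymes Aldoc, Pfkp, Pgam2 and Eno3 differed between KO and WT by -0.81 to 0.24, each by less than its pooled SD of 0.64 to 1.73. With run as a block Pfkp was at -3.40, Eno3 at -1.83 and Aldoc at -1.35, and Pfkm, the only one of the 15 at least 1 higher, at 1.64. Among the genes that steer flux around the pathway, 4 of 21 were at least 1 higher in KO than in WT (Pdk1, Fbp1, Mycn and Adpgk) and 2 at least 1 lower (Pgd and Myc), against 8.14% and 4.41% of all genes. With run as a block 6 were higher and 4 lower, against 12.8% and 12% of all genes. Among them were Pfkfb4 (2.19), Pfkfb2 (1.64), Taldo1 (1.30), Pdp1 (-1.99) and Pfkfb3 (-1.14), which were within 1 without the block. Mycn, a MYC family member, was above the floor in every cell and was 1.09 higher in KO than in WT (pooled SD 0.60), or 0.50 with run as a block, while Myc was above the floor in 0 of 4 KO, 7 of 13 +/- and 6 of 13 WT cells. Pdk1, the kinase that restrains pyruvate dehydrogenase, read 11.35, 11.45, 10.39 and 11.64 in KO, ran from 0 to 11.87 in WT, and was 1.85 higher in KO (pooled SD 1.88). Fbp1, which runs gluconeogenesis against phosphofructokinase, was above the floor in 2 of 4 KO, 3 of 13 +/- and 0 of 13 WT cells. Pgd, of the pentose phosphate branch, was 1.59 lower in KO than in WT (pooled SD 0.88), with KO values of 10.94, 11.24, 7.57 and 8.94.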

How the data were processed

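Single-cell cDNAs were hybridised by the authors to Affymetrix Mouse Genome 430 2.0 arrays, and the deposited log2 values are MBEIs that the authors computed with dChip 1.3. No source used here states how arrays were scaled to each other. One table of 45101 probe sets by 30 cells was used. Symbols came from the platform annotation (34958 probe sets with 1 symbol, 932 with several, 9211 not listed) and were checked against RefSeq gene IDs. Values were floored at 6 and genes represented by the probe set of highest mean; a difference of means of at least 1 was counted. No pair of arrays was identical (r 0.58 to 0.74 over all probe sets). Arrays carry no counts, so precision is limited by the number of cells. With 1 sample per genotype no p-value was computed. Named genes were all members with every probe set, pathway genes at least 1 apart between 2 labels or isozymes of a member, and the 10 genes most like the member mean; Slc2a1, Slc2a3, Pgk1, Pgk2 and Pkm were added after their values were seen. Members and lists were chosen with earlier results of these data known. Alternatives covered the floor (4, 8, none), 2 between-array scalings, the median over cells, all probe sets, run as a block or within run, and leaving out each KO cell. The calculation was tested on simulated data. Calculations ran in Python 3.11.15 with pandas 2.3.3 on NumPy 2.4.6, and figures were drawn in matplotlib 3.10.9.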

Additional observations from a re-analysis of the deposited data

Results flagged for a closer look

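Among the 4 cells labelled Prdm14 KO, Dixon's ratio (the gap of the extreme cell to its neighbour over the whole range) passed its critical value for 7 of 23 results, and chance flags about 1 in 20; probe sets of 1 gene are not independent. Cell 81 stood above the other 3 for 3 Aldoa probe sets, at 12.65 (ratio 0.867), 12.57 (0.87) and 11.72 (0.886). The same cell was the only one above the floor for the weakest Pfkl probe set, at 8.46 (ratio 1). Cell 18 stood apart as the lowest for a second Pfkl set at 8.52 (0.839) and as the only KO cell with Hk1, at 9.33 (ratio 1). For the 2 results with a ratio of 1 the other 3 cells sat at the floor, which fixes the ratio, so the 1 in 20 does not apply to them. Cell 8 stood lowest for the representative Tpi1 set at 10.25 (0.848), and it also had the largest Gapdh 3′ to 5′ difference of all 30 cells at 1.13.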

How the results depend on the processing

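The member median kept its sign under every alternative run for all 5 comparisons: from -0.82 to -0.29 for KO minus WT over 14 alternatives, from -0.45 to -0.07 for KO minus +/- over 15, from -0.59 to -0.17 for +/- minus WT over 11, and above 0 in 7 of 7 for each comparison of runs. Leaving out each KO cell in turn gave -0.66 to -0.41 for KO minus WT and -0.29 to -0.08 for KO minus +/-. With run as a block KO minus WT was -0.82, and the Gapdh 3′ to 5′ difference was 0.70 for KO minus WT and 0.43 for +/- minus WT. That Gapdh difference ran from 0.24 to 0.52 for KO minus WT and from 0.02 to 0.29 for KO minus +/- as single KO cells were left out. The block fit returns the value within run 3 for KO minus +/- and the value within run 2 for +/- minus WT. In the counts of 15 and 11 alternatives these settings are therefore not separate checks. The members at least 1 apart numbered 2 for KO minus WT, 1 without cell 8, 1 with the Gapdh difference as a covariate, and 1 to 3 over the KO cells left out (3 without cell 18 or cell 81, with Ldhb added). It was also 3 with run as a block (Hk1 added at -1.24) and with the mean over all probe sets (Ldhb added at -1.03). For Hk1 only cell 64 of the WT cells in run 2 was above the floor. By the median over cells the count was 2, with Ldhb (-1.12) in place of Tpi1 (-0.97). Without the 6 cells over 0.7 it was 2 with Pfkl (-1.19) in place of Tpi1. For KO minus +/- the count was 0, also without each KO cell (0 to 0). It was 1, with Hk2 lower in KO, by the median over cells, with run as a block or within run 3. Without the 6 cells over 0.7 it was also 1, but with Hk1, which was 1.43 higher in KO. For +/- minus WT the count was 1 (Hk2). It was 2 with run as a block or within run 2, with Hk1 also lower in +/- (-1.03). With no floor it was 2 as well, but Hk1 was 1.29 higher in +/-. Of 360 alternatives for single genes 351 stayed within 1 SD between cells and 0 of the called values changed sign, but uncalled values did so in 23 alternatives over 7 of 27 pairs of gene and comparison. These were Hk1 in all 3 comparisons (KO minus WT 0.22, and -1.24 with run as a block; +/- minus WT 0.09, and -1.03), and for KO minus +/- Hk2 (-0.57, and 0.99 with no floor), Aldoa (0.12, and -0.27 by the median over cells), Pfkl (-0.10, and 0.10 with run as a block) and Gapdh (-0.05, and 0.03 with the covariate). Scaling moved the median of the genes with a mean of at least 10 by less than 0.1. No paired analysis was possible because replicate numbers only name cells and tie none to another label. Low signals limit Hk1, Hk2 and Slc16a3, and the causes of the moved values were not tested.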
